A study of Mus musculus with 108 samples.

Results

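The locus of Runx1 was examined in a reporter screen that asked which pieces of open chromatin drive a gene at successive steps of blood formation from mouse embryonic stem cells. It was taken as the gene body and 100 kb on each side (mm10, chr16:92501466-92926149), and every listed fragment overlapping this window by at least 1 bp was a member. There were 271 distinct fragments in the sorted libraries, of 1177237 in all. Overlapping fragments were merged, separately for distal and promoter fragments, into 35 sites, of which 33 were distal and 2 were promoter sites.

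Open chromatin cut out by Tn5 transposase from 5 stages was cloned into an entry vector (pDONR) and moved to a reporter vector (pSKB) in front of an HSP68 minimal promoter and Venus-YFP. The constructs were integrated at Hprt in a mouse ES cell line, HM-1, that lacks functional HPRT, and all sorted groups came from these cells. The stages were undifferentiated ES cells (ES), FLK1+ hemangioblast cells (HB), the first hemogenic endothelium (HE1, KIT+ TIE2+ CD41-), the second hemogenic endothelium (HE2, KIT+ TIE2+ CD41+) and hematopoietic progenitors (HP, KIT+ TIE2- CD41+). There were 5 replicates of each stage. Gates on YFP gave a Negative, a Low, a Medium and a High library, with Medium and High sorted as 1 gate in replicate 5, which made 95 libraries. The 5 pDONR lists, the 5 pSKB lists and the 3 lists from PCR on HM-1 cells completed the series. Each fragment was read at 1 fixed place, outside its native setting and with the same minimal promoter, and the libraries hold reporter DNA, so the stages could not be checked against marker genes. The Low, Medium, High and Medium/High lists of a stage and replicate were joined and called YFP-positive, which gave 25 YFP-positive and 25 Negative sets.

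RUNX1 is a DNA-binding factor that pairs with CBFB and is needed for blood cells to arise from hemogenic endothelium. Mouse Runx1 is read from a distal promoter (P1) and a proximal promoter (P2) that lie far apart, and P2 is the promoter used first in development. Distal elements within its first introns and upstream of P1 are known to drive its expression in blood-forming cells, and a well-known one lies in the intron between both promoters. Runx1 lies on the minus strand at chr16:92601466-92826149. Its P1 start is at position 92826149 and its P2 start at 92697328, and sites are named by the distance of their middle from the P1 start, with minus signs for sites upstream of it.

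The depth of the lists differed widely. YFP-positive sets held 1553 to 229786 fragments and Negative sets 720 to 131091. Replicates 1 and 2 held 92.3% of the listings in the Runx1 locus and 91.6% of all listed fragments. The lists give each fragment once without read numbers. The labels do not say whether replicates came from separate cultures, so p-values measure the spread between these sets, which may be technical. Some libraries stood apart. HE1 Negative replicate 1 shared 68.3% of its fragments with HE1 Medium replicate 2, and HE1 Negative replicate 3 shared 83.0% of its fragments with HE1 Low replicate 4, whereas HE1 Negative replicate 1 shared 6.51% with HE1 Medium replicate 1. In the Runx1 locus 17 of the 31 fragments of HE1 Negative replicate 1 were also in HE1 Medium replicate 2. The main values at HE1 are given with and without these 4 libraries. No fragment of the locus was identical to one of the HM-1 control lists.

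The sequences below are those of the sites that held most fragments and of the site in the intronic stretch between 22 and 25 kb downstream of P1. Each distal sequence is 300 bases around the position covered by most distinct fragments of that site, and the P2 sequence is the 300 bases before the P2 start. All are on the minus strand, the strand of Runx1, from the GRCm38 (mm10) genome. Capitals mark matches to 9 motifs, each searched on both strands. The motif of the RUNX factors was searched as TGTGGT, that of the GATA factors as AGATAA and that of the ETS factors as AGGAAG. The E-boxes bound by factors such as TAL1 were searched as CAGCTG and also as CATCTG. The AP-1 motif was searched as TGANTCA, the TEAD motif as GGAATG, the SMAD motif as GTCTAGA and the OCT motif as ATGCAAA.
-57.9 kb, chr16:92883870-92884169: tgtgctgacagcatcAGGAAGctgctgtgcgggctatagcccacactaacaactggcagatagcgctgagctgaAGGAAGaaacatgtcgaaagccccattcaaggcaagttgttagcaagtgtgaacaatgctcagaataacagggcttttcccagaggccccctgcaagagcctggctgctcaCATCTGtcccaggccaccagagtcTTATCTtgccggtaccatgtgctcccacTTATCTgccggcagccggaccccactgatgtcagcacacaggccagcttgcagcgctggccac
+3.7 kb, chr16:92822200-92822499: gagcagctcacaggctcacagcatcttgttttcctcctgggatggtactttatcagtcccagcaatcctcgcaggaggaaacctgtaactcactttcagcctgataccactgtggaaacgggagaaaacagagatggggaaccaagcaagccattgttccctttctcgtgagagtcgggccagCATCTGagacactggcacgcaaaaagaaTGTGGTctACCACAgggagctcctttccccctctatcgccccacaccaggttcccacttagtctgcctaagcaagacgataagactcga
+24.4 kb, chr16:92801618-92801917: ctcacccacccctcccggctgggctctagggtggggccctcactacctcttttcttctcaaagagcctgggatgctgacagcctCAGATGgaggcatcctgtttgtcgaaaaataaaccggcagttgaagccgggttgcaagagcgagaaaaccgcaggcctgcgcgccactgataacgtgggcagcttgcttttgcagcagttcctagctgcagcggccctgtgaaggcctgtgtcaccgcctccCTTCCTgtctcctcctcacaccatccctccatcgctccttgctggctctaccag
+110.4 kb, chr16:92715546-92715845: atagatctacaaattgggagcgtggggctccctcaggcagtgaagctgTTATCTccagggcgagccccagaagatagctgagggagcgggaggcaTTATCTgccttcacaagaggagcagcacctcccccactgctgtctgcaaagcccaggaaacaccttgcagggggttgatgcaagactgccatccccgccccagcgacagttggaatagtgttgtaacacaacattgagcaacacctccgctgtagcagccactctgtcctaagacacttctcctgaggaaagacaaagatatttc
P2, chr16:92697329-92697628: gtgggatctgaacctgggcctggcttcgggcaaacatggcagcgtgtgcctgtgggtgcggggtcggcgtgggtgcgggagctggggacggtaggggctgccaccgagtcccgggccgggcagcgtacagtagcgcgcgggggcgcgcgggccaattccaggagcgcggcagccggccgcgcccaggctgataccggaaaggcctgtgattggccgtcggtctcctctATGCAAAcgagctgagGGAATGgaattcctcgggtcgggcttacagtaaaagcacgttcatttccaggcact

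The -57.9 kb window held 2 GATA motifs, 2 ETS motifs and 1 CATCTG E-box, an assortment known from elements bound by the blood factors GATA2, FLI1 and TAL1. The +3.7 kb window held 2 RUNX motifs on opposite strands at positions 212 and 220, counted from 1 at the 5′ end of the printed strand, and an E-box. The +110.4 kb window held 2 GATA motifs. The +24.4 kb window held 1 ETS motif and 1 CATCTG E-box. Matches on the other strand appear as their reverse complement, as TTATCT for GATA. The P2 sequence held 1 OCT motif and 1 TEAD motif. These short motifs were common: of 58908 windows of the same length at distal sites of the whole screen, 25.7% held the RUNX motif, 18.6% the GATA motif, 49.3% the ETS motif and 25.3% CATCTG. Of the 33 distal windows in the Runx1 locus, 9 held RUNX, 8 GATA, 20 ETS and 8 CATCTG. AP-1 was held by 8 (16.6% of all distal windows), CAGCTG by 7 (23.0%), TEAD by 4 (19.7%), SMAD by 0 (2.64%) and OCT by 0 (4.89%). Of 21930 windows of 300 bases before protein-coding genes, 4.66% held OCT and 13.96% TEAD. None of the motifs overlapped another in the printed windows. A match is a description of the letters and not of binding. Only the letters given were searched, so other spellings of a motif were not counted. A window without a match may still hold such a spelling.

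YFP-positive cells held more of the Runx1 locus at HB than at ES. As fragments of the locus per 10000 listed fragments, the ES sets had 1.00, 0.967, 1.03, 0 and 0 in replicates 1 to 5, a mean of 0.599 ± 0.547 (SD, n = 5). The HB sets had 2.63, 2.38, 2.94, 1.70 and 5.41, a mean of 3.01 ± 1.42. Every HB set lay above every ES set. The difference of 2.41 per 10000 had an exact two-sided permutation p of 0.00794, the smallest that 5 sets against 5 allow, and an adjusted p of 0.0317 over the 4 steps between stages. The sets were unequal in depth: replicates 4 and 5 of ES held 0 fragments of 5143 and 2186, which allows up to 5.83 and 13.7 per 10000, and replicates 4 and 5 of HB held 1 fragment each. Without 1 replicate in turn the difference was 1.66 to 2.66, with an adjusted p of 0.0571 to 0.114, where 4 sets against 4 allow an exact p of 0.0286 at the least. In the 3 deep replicates alone HB stayed higher by 1.65, without overlap, and 3 sets against 3 cannot reach an exact p below 0.10.

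Distinct fragments pooled over replicates gave 21 of 200199 in ES YFP-positive cells, which is 1.05 per 10000 (95% Clopper-Pearson interval 0.649 to 1.60), and 69 of 259428 in HB, 2.66 per 10000 (2.07 to 3.37). These intervals cover counting error only, since fragments were amplified by PCR without molecular identifiers. At HE1 the pooled value was 2.00 (1.59 to 2.48), or 2.09 (1.60 to 2.69) without the 4 libraries that shared fragments, at HE2 2.64 (2.11 to 3.27) and at HP 1.92 (1.41 to 2.54). ES was thus the stage whose interval lay apart from that of HB and HE2 and touched those of HE1 and HP.

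Across all stages the mean over replicates was highest at HE2, then HB, HE1, HP and ES. The HE2 sets had 2.76, 2.08, 4.20, 4.09 and 6.44 per 10000 (mean 3.91 ± 1.67, n = 5). The HE1 sets had 1.83, 2.53, 2.59, 0.754 and 3.77 (2.29 ± 1.11), and the HP sets 1.96, 1.5, 0, 0 and 2.23 (1.14 ± 1.07). The 2 HP sets at 0 held 2309 and 2805 fragments, so 0 allows up to 13.0 and 10.7 per 10000. HE2 to HP fell by 2.78 per 10000 (exact permutation p = 0.0159, adjusted p = 0.0317), although the groups overlapped between 2.08 and 2.23. Shallow sets entered on both sides, since HE2 replicates 4 and 5 held 1 fragment each, of 2444 and 1553 listed. Pooled over replicates, the intervals of HE2 (2.11 to 3.27) and HP (1.41 to 2.54) overlapped, and HB (2.66) stood beside HE2 (2.64). Without 1 replicate in turn the step from HE2 to HP was -3.32 to -2.42, with an adjusted p of 0.0571 to 0.114. HB to HE1 (-0.718, adjusted p = 0.444) and HE1 to HE2 (1.62, adjusted p = 0.138) did not pass the exact permutation test, and they were -0.683 and 1.59 without the 4 HE1 libraries. No stage differed beyond its spread from its neighbour in the order of the means, with exact permutation p-values of 0.389 (HE2 against HB), 0.444 (HB against HE1), 0.135 (HE1 against HP) and 0.381 (HP against ES), each 0.444 after adjustment over the 4 pairs. With High and Medium/High libraries alone ES to HB came to 1.68 (adjusted p = 0.19) and HE2 to HP to -1.35 (adjusted p = 0.492), so neither passed. With distal fragments alone, per 10000 distal fragments, the differences were 6.59 and -8.39 (adjusted p = 0.0952 each by the exact permutation test).

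**Figure D1:**
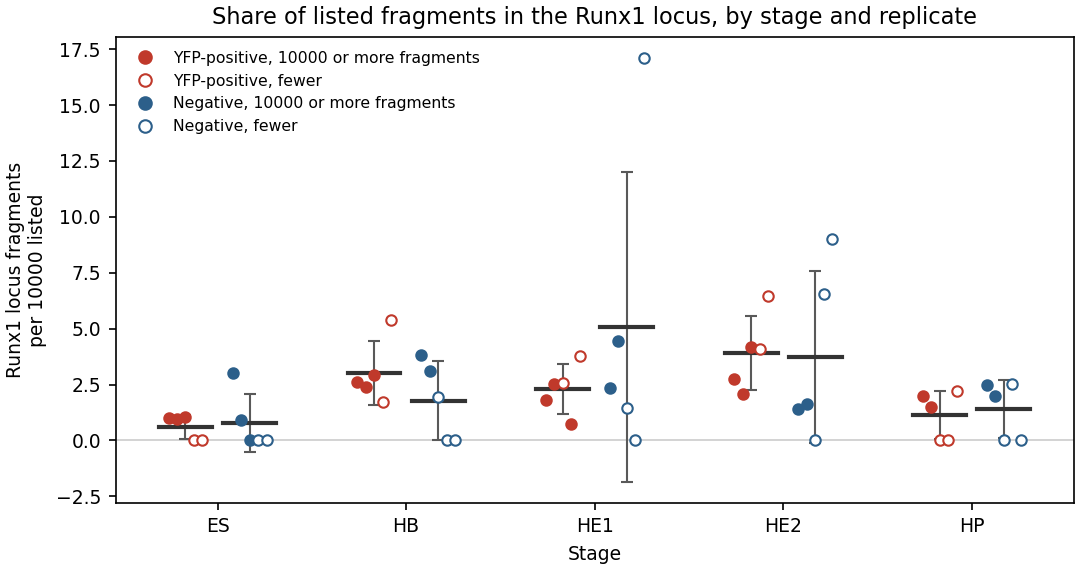
Fragments in the Runx1 locus per 10000 listed fragments (vertical axis) by stage (horizontal axis), 1 point per replicate, for YFP-positive (red) and Negative (blue) sets, with bars for the mean and SD. Open points are sets of fewer than 10000 fragments; all 5 HB YFP-positive sets lie above all 5 ES YFP-positive sets, and the highest Negative set, at 17.1, is HE1 replicate 5.

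Negative cells, which carried the library but no visible YFP, gave the background. Their pooled shares were 1.26 per 10000 at ES (0.629 to 2.25), 3.22 at HB (2.14 to 4.66), 2.57 at HE1 (1.86 to 3.44), 1.61 at HE2 (0.834 to 2.82) and 2.21 at HP (1.28 to 3.53). Without the 4 libraries that shared fragments the HE1 value was 4.18 (2.48 to 6.61). Like the YFP-positive lists, they held the lowest share at ES. The step from ES to HB was 0.996 in Negative sets (exact permutation p = 0.365). HB Negative replicates 4 and 5 held 0 fragments of the locus, of 1735 and 1425 listed, and ES Negative replicates 3 to 5 also held 0. Pooled over replicates, the share went from 1.26 to 3.22 in Negative cells and from 1.05 to 2.66 in YFP-positive cells. Whether the step differed between Negative and YFP-positive sets was not tested.

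No difference between the YFP-positive and Negative shares of the Runx1 locus passed the test. Over all 25 pairs of sets the YFP-positive share was lower by 0.359 per 10000 (means 2.19 and 2.55, permutation p = 0.679 with 100000 resamples). It was -0.0354 without replicate 5 and -0.816 without replicate 3, the ends of the range without 1 replicate. The differences by stage were -0.182 at ES, 1.23 at HB, -2.78 at HE1, 0.198 at HE2 and -0.265 at HP, with an exact permutation p of 0.254 or more and an adjusted p of 0.96 at each. On the log2(fragments per 10000 + 1) scale the sign was the other way, 0.16 ± 0.24 (SE; limma, adjusted p = 0.823), beside a median of 0.15 over all gene loci, and -0.14 with sets weighted by listed fragments. At HE1 the difference was -4.85 without the 4 libraries that shared fragments (adjusted p = 0.635). Negative replicate 5 of HE1 alone stood at 17.1, from 2 fragments of 1169 listed, with a 95% interval of 2.07 to 61.7. Of the 243 distinct YFP-positive fragments of the locus, 64 (26.3%) were also listed in Negative cells, which is 69.6% of the 92 Negative fragments. Without the 4 HE1 libraries 44 of 227 YFP-positive fragments (19.4%) and of 67 Negative fragments (65.7%) were in both.

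Nor did a difference between high and low YFP pass. High and Medium/High sets had 2.25 fragments per 10000 against 2.07 in Low sets over all stages, a difference of 0.11 ± 0.34 (SE) on the log2(fragments per 10000 + 1) scale (limma, adjusted p = 0.966). At HB the Low libraries had a mean of 3.02 ± 3.93 (n = 5), the Medium libraries 1.97 ± 1.43 (n = 4) and the High libraries 2.82 ± 0.685 (n = 4). At HE2 the values were 4.13 ± 3.65, 4.89 ± 4.35 and 3.21 ± 3.12. At HE1 they were 1.35 ± 1.55, 1.04 ± 1.21 and 4.27 ± 5.31. Some of these means rested on 1 shallow library. Without HE1 High replicate 3 (1 fragment of 840) that mean was 1.72, without HB Low replicate 5 (1 of 1041) 1.37, without HE2 Medium replicate 4 (1 of 886) 2.76 and without HE2 High replicate 3 (1 of 1344) 1.79. At HE1, leaving out replicate 2 took the Low mean to 0.797, and leaving out replicate 1 took the Medium mean to 0.644. At each of these stages the SD of at least 1 gate was larger than the differences between the gates. With sets weighted by listed fragments the difference turned to -0.18 on the log2 scale (adjusted p = 0.479).

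The P2 promoter carried more fragments than any other site of the locus. The site at chr16:92697249-92697926 (+128.6 kb) spanned the P2 start and overlapped the exon that begins there. It held 74 distinct fragments, 65 in YFP-positive and 31 in Negative cells. It was the site that appeared at all 5 stages in YFP-positive cells. ES replicates 1 to 3 held 6, 8 and 3 YFP-positive fragments there and replicates 4 and 5 held 0. HB replicates held 12, 5, 5, 1 and 0, HE1 replicates 13, 14, 0, 1 and 0, HE2 replicates 10, 4, 1, 0 and 0, and HP replicates 7, 1, 0, 0 and 0. It was listed in 15 of 25 YFP-positive sets and 14 of 25 Negative sets. The mean share was 0.431 per 10000 in YFP-positive and 1.26 in Negative sets, and the difference of -0.33 ± 0.21 (SE) on the log2 scale did not pass limma (adjusted p = 0.69). The Negative mean rested largely on 2 shallow sets with 1 fragment each. These were HE1 replicate 5 (8.55 per 10000, 1169 listed) and HE2 replicate 5 (8.99, 1112 listed). Here 0 of 12326 promoter sites (0%) passed, and 897 (7.28%) had an unadjusted p under 0.05. Without the 4 HE1 libraries it held 18 YFP-positive and 6 Negative fragments at HE1, against 24 and 12 with them.

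P1 held few fragments. Its site at chr16:92825908-92826122 lay in the first exon, in the 5′ untranslated region, and held 2 fragments. It was listed in YFP-positive cells in 1 HE2 replicate and 1 HP replicate, and in no Negative set.

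The distal site with most fragments lay upstream of the gene. The -57.9 kb site (chr16:92883749-92884435), between genes, held 48 distinct fragments, 42 in YFP-positive and 20 in Negative cells, with 14 in both. It was listed in 0 of 5 ES sets, YFP-positive or Negative, and at every later stage. HB replicates 1 to 5 held 5, 7, 3, 0 and 0 YFP-positive fragments, HE1 replicates 6, 10, 0, 0 and 0, HE2 replicates 10, 4, 0, 0 and 1, and HP replicates 6, 2, 0, 0 and 0. Negative sets held 4 and 5 fragments in HB replicates 1 and 2, 8 and 5 in those of HE1, 0 and 2 in those of HE2, and 5 and 3 in those of HP. YFP-positive fragments thus came in replicates 1 and 2 of every stage from HB on and rarely in the shallower replicates. Without the 4 HE1 libraries it held 10 YFP-positive and 5 Negative fragments at HE1 against 14 and 10 with them. The difference between YFP-positive and Negative sets was 0.04 ± 0.13 on the log2 scale (limma, adjusted p = 0.942). When sets were weighted by their listed fragments it was -0.26 ± 0.07 (adjusted p = 0.0244), with the Negative sets higher, and 535 of 10479 distal sites passed.

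The +3.7 kb site (chr16:92822069-92822770), in the intron that follows the second exon of the P1 transcript, held 29 distinct fragments, 28 in YFP-positive and 7 in Negative cells. HB replicates 1 to 5 held 4, 7, 2, 0 and 0 YFP-positive fragments, HE1 replicates 7, 2, 0, 0 and 0, HE2 replicates 8, 5, 2, 0 and 0, and HP replicates 4, 2, 0, 0 and 0. Negative fragments came at the same 4 stages, in 7 sets. ES held 0 in all 10 sets. Without the 4 HE1 libraries the HE1 counts went from 8 YFP-positive and 3 Negative fragments to 8 and 1. The difference between YFP-positive and Negative sets was -0.04 ± 0.14 on the log2 scale (limma, adjusted p = 0.94).

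The +110.4 kb site (chr16:92715380-92716149), in the same intron at -18.4 kb from the P2 start, held 20 distinct fragments and was listed at the same stages. HB replicates 1 to 5 held 3, 3, 0, 0 and 1 YFP-positive fragments, HE1 replicates 3, 3, 0, 0 and 0, HE2 replicates 4, 5, 0, 0 and 0, and HP replicates 3, 1, 0, 0 and 0. It was listed in 9 YFP-positive and 6 Negative sets and in 0 of the 10 ES sets. Its 5 YFP-positive and 4 Negative fragments at HE1 were 4 and 3 without the 4 HE1 libraries. The difference between YFP-positive and Negative sets was 0.10 ± 0.11 (limma, adjusted p = 0.799).

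The stretch from 22 to 25 kb downstream of P1, where a well-known blood enhancer of Runx1 lies, held 2 sites. The +24.4 kb site (chr16:92801604-92801955) held 6 fragments, 5 of them in YFP-positive cells. Its YFP-positive fragments came in HE1 replicates 1 and 2 (2 and 3), HE2 replicates 1 and 3 (1 each) and HP replicate 1 (1), and its 1 Negative fragment in HE1 replicate 1, a library that shared fragments. It was listed in 3 Low, 0 Medium and 4 High libraries. ES and HB held 0 in YFP-positive and Negative cells alike. The neighbouring +24.1 kb site held 1 fragment, in HE1.

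Other sites appeared later or at fewer stages. The +7.1 kb site (chr16:92818734-92819372) held 8 fragments, listed at HE2 and HP alone, in 5 YFP-positive sets and 3 Negative sets, and these included shallow sets of replicates 4 and 5. The -31.0 kb site (7 fragments) and the +260.2 kb site (5 fragments) were listed in YFP-positive cells at HE1, HE2 and HP, and the +2.5 kb site (7 fragments) at HE1 and HE2. At +2.5 kb the 3 YFP-positive and 2 Negative fragments of HE1 were 1 and 0 without the 4 HE1 libraries. The -2.1 kb site (3 fragments), just upstream of P1, was listed at HB and HE1 in 5 YFP-positive sets. The +306.1 kb site (7 fragments), within the neighbouring gene Clic6, was listed in 8 YFP-positive sets from HB to HP. The +205.2 kb site (15 fragments), in an intron near the 3′ end of Runx1, went the other way in that it was listed at ES, HE1 and HE2 and not at HB or HP. At HE1 its 6 YFP-positive and 4 Negative fragments became 2 and 0 without the 4 libraries that shared fragments.

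**Figure D2:**
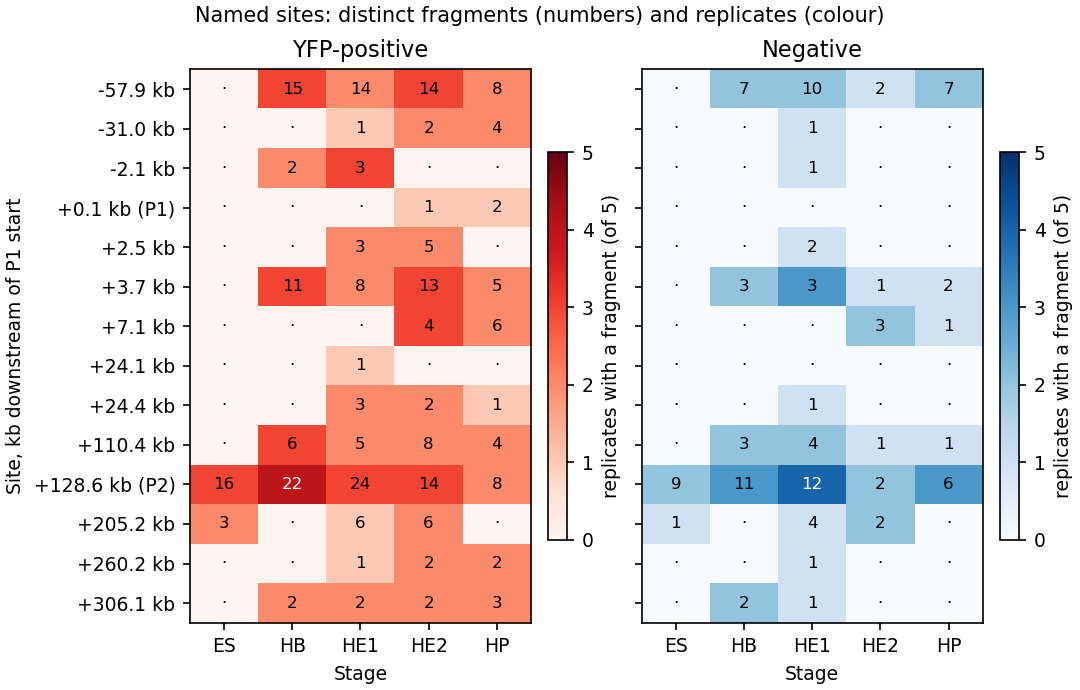
Named sites (rows, by kb downstream of the P1 start) and stages (columns) for YFP-positive cells (left) and Negative cells (right). Numbers are distinct fragments and colour is the number of the 5 replicates with a fragment; the ES column holds fragments at P2 and the +205.2 kb site only.

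Counted over all sites, 4 of the 33 YFP-positive sites were listed at ES, 13 at HB, 18 at HE1, 20 at HE2 and 14 at HP. Those at ES were P2, +205.2, +140.1 and +219.9 kb, of which the last pair are named after their values were seen. The first stage was ES for 4 sites, HB for 11, HE1 for 9, HE2 for 6 and HP for 3. Thinned to an equal depth of 200199 fragments, the expected number of sites was 4.00 at ES, 11.9 at HB, 13.4 at HE1, 16.8 at HE2 and 13.1 at HP, and ES had the lowest count at equal depth too. Sites listed in at least 2 replicates numbered 2, 8, 11, 13 and 8 in the same order. In bins of 500 bp in place of merged sites the counts were 6, 16, 23, 26 and 21. Of the 33 sites 14 were listed at 1 stage and 1 at all stages, and 12 of the 35 sites rested on 1 fragment. The 2 sites listed in Negative cells alone lay at +273.3 and +271.6 kb, with 1 fragment each.

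Sites were absent from ES in Negative cells too. None of the 29 sites that YFP-positive cells lacked at ES was listed in ES Negative cells, and 3 of the 4 sites that they held were listed there. Of the 35 pairs of a site and a stage with a Negative fragment, 33 also had a YFP-positive fragment, and 27 of 28 did without the 4 HE1 libraries. Negative HE1 cells then held 6 sites in place of 13, and YFP-positive HE1 cells 18 as before. Per the methods, fragments were limited to open chromatin peaks, which was not checked here, and the sources used here do not say whether each stage was held to its own peaks, so presence of a site at a stage by activity and by open chromatin cannot be told apart.

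**Figure D3:**
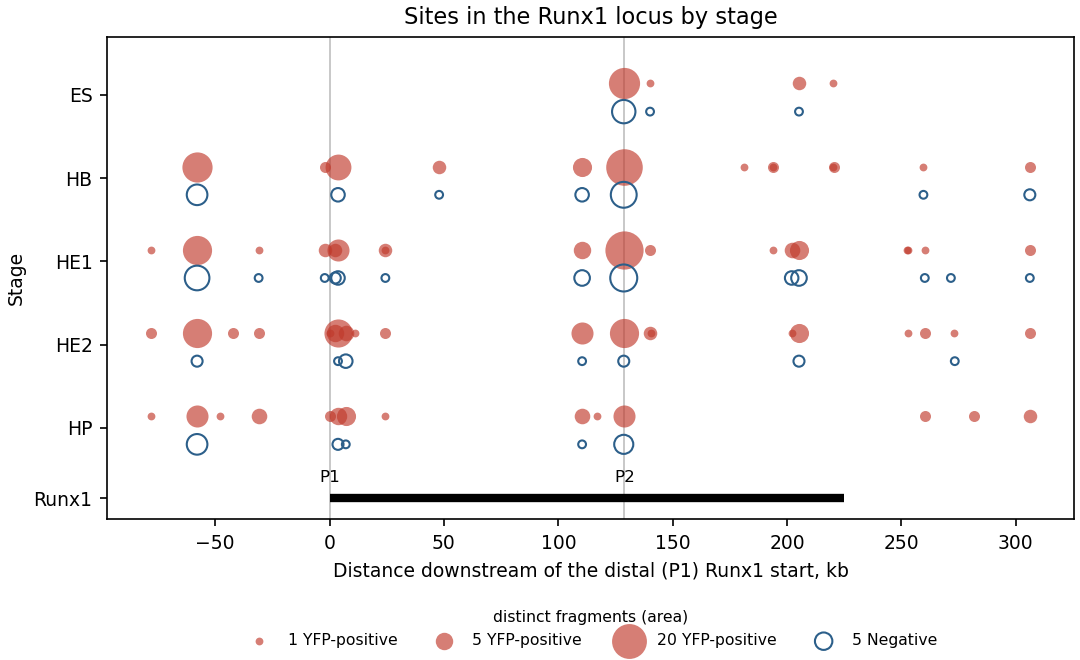
Sites of the Runx1 locus by distance downstream of the P1 start in kb (horizontal axis) and stage (rows), with area for the number of distinct fragments in YFP-positive (filled) and Negative (open) cells. The bar is the Runx1 gene; 4 sites are filled at ES against 20 at HE2, and open circles lie under filled ones.

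In the unweighted tests of single sites across the genome no site of the locus passed, and with sets weighted by listed fragments the -57.9 kb site did, as given above. Of the 33 distal sites 4 passed the filter of a fragment in at least 10 of 50 sets, those at -57.9, +3.7, +110.4 and +306.1 kb. Of these 4, 0 were called between YFP-positive and Negative sets, against 0 of 10479 sites (0%) in all, with 653 sites (6.23%) at an unadjusted p under 0.05. Between consecutive stages 0, 6, 7 and 7 distal sites of the locus entered the fit, in order from ES to HB, and 0 were called, against 0 of 6829, 8412, 12353 and 8467 distal sites. The counts at an unadjusted p under 0.05 were 236 (3.46%), 157 (1.87%), 13 (0.105%) and 3 (0.0354%) over all distal sites. Promoter sites were not fitted between stages, so the P2 site was not tested for a change by stage. Between High and Low sets 3 distal sites and the P2 site entered the fit and 0 were called, with 305 distal (4.69%) and 480 promoter sites (4.34%) at an unadjusted p under 0.05 over all sites. In Negative sets 3 distal sites of the locus entered the fit from HB to HE1 and 1 from HE1 to HE2, with 0 called, and none entered at the other steps. Over all sites 27 (1.39%) and 7 (0.269%) distal sites had an unadjusted p under 0.05 from ES to HB and from HB to HE1, and 0 (0%) and 2 (0.106%) at the later steps. From ES to HB in YFP-positive cells each distal site of the locus had a fragment in fewer than 4 of the 10 sets and was left out.

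Taken as a whole gene locus and fitted with all others, Runx1 was 1.34 ± 0.57 (SE) higher at HB than at ES on the log2(fragments per 10000 + 1) scale in YFP-positive sets (limma, unadjusted p = 0.0227, adjusted p = 1.00). The median over 18388 loci was 0.01, and 576 loci (3.13%) had an unadjusted p under 0.05 with 0 called. Runx1 was 1 of 67 loci (0.364%) whose HB sets all lay above their ES sets, and 158 loci (0.859%) had all HB sets below their ES sets. With sets weighted by listed fragments the difference was 0.87 ± 0.22 (adjusted p = 0.0032), among 652 loci called. The later steps were -0.30 ± 0.56, 0.59 ± 0.63 and -1.32 ± 0.76, with adjusted p-values of 0.996, 0.999 and 0.999 by limma. With weighted sets they were -0.20, 0.21 and -0.35, with adjusted p-values of 0.691, 0.98 and 0.56.

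Runx1 was set beside 21 loci chosen by role, from its family and partner, factors acting on blood enhancers and genes under RUNX1 control. From ES to HB 16 of these were higher and 5 lower at HB, with a median of 0.31 against 0.01 over all loci, and 0 were called by limma, with 4 at an unadjusted p under 0.05. In Negative sets, where Myb did not pass the filter, the median of the other 20 loci was 0.32. Among factors that occupy blood enhancers, the differences were 1.41 ± 0.48 (SE) for Erg and 1.23 ± 0.59 for Tal1, and for Tead4, whose factor binds TEAD motifs, 1.32 ± 0.57. Fli1, an ETS factor, had 0.53 ± 0.57, Gata2 -0.38 ± 0.56 and Lmo2, a bridging partner of TAL1, -0.18 ± 0.40. Spi1, the gene of the myeloid factor PU.1 and a target of RUNX1, had 1.32 ± 0.57 and Csf1r, a target of PU.1, 0.84 ± 0.59. Pooled over replicates, however, the YFP-positive share of the Spi1 locus was 3.05 per 10000 at ES and 3.51 at HB, with overlapping 95% intervals. Cbfb, the gene of the partner of RUNX1, had 0.80 ± 0.50, and of the RUNX family Runx3 had 0.59 ± 0.60 and Runx2 0.00 ± 0.39. The 4 loci with an unadjusted p under 0.05 were Erg, Tead4, Spi1 and Tal1, and all 21 had an adjusted p of 0.866 or more by limma.

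**Figure D4:**
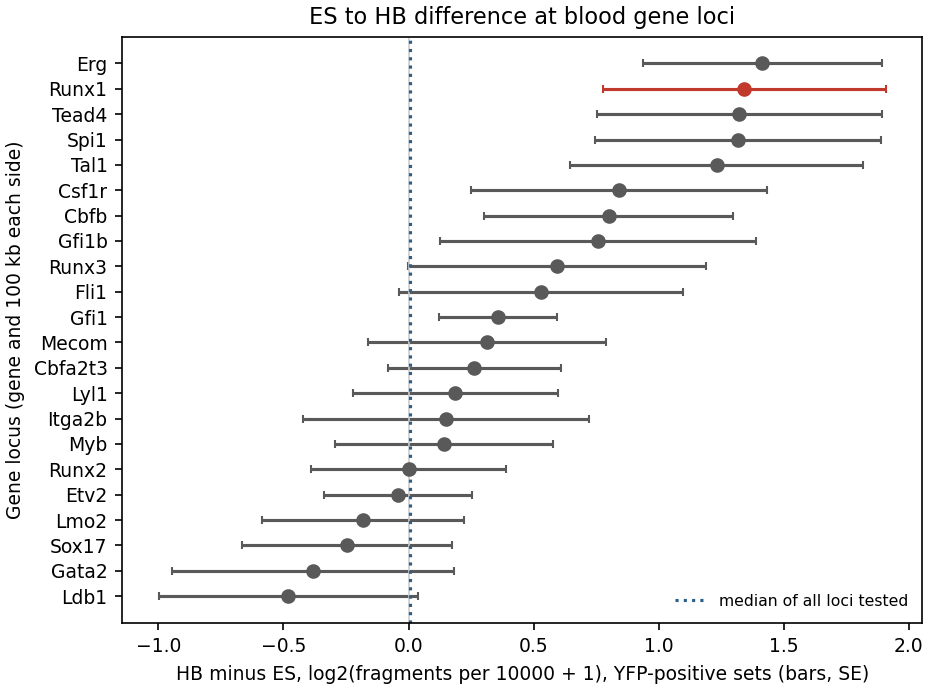
Difference between HB and ES YFP-positive sets on the log2(fragments per 10000 + 1) scale (horizontal axis; bars are SE, 5 sets each) for the Runx1 locus (red) and 21 other loci (rows). Runx1 at 1.34 lies next to Erg, Tead4, Spi1 and Tal1, and the dotted line marks the median of all loci tested.

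The locus held fewer fragments than those of 3 other blood genes measured over the same flanks. The Spi1 locus held 444 distinct fragments, Mecom 449 and Tal1 473. At ES their pooled YFP-positive shares were 3.05 (2.33 to 3.91), 3.55 (2.77 to 4.47) and 2.70 (2.03 to 3.52) per 10000, each with an interval above the Runx1 value of 1.05 (0.649 to 1.60). At HB they were 3.51 (2.82 to 4.31), 3.24 (2.58 to 4.01) and 4.20 (3.45 to 5.07), and at HP 4.27, 3.27 and 4.23. The ES and HB intervals overlapped at each of these loci. These loci differ in length, so their levels are not set per base.

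The chromatin cloned from each stage held the locus at different levels. In the pDONR lists, before transfer to the reporter vector, the locus held 179 fragments per 1000000 at ES (95% Poisson interval 168 to 190), 299 at HB (286 to 313), 272 at HE1 (261 to 283), 388 at HE2 (373 to 404) and 496 at HP (479 to 513). The pSKB lists gave 192, 290, 265, 360 and 454. The HB list held the locus at 1.67 times (1.55 to 1.81) the share of the ES list in pDONR and 1.51 times (1.32 to 1.74) in pSKB, and the HP list at 1.28 times (1.21 to 1.35) that of HE2 in pDONR. These ratios are of cloned chromatin and were not shown to be those of the input of the cells sorted at each stage. The part of plasmid representation in the sorted values was not tested. All 35 sites were overlapped by plasmid fragments, and over the sites the number of plasmid fragments and the number of distinct YFP-positive fragments had a Spearman rho of 0.765, against 0.718 for Negative fragments (n = 35 sites, which share libraries and depth).

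**Figure D5:**
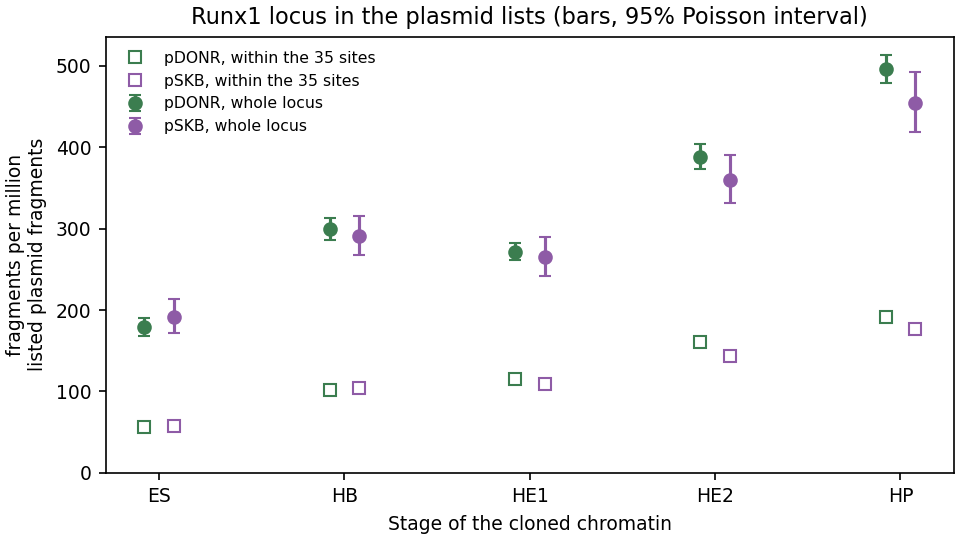
Fragments of the Runx1 locus, as fragments per 1000000 in each plasmid list (vertical axis), by stage of the cloned chromatin (horizontal axis) in pDONR (green) and pSKB (purple); circles are the whole locus with 95% Poisson intervals and squares the fragments within the 35 sites. The pDONR values go from 179 at ES to 496 at HP.

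Each site had its own course in the plasmid lists. At P2 the pDONR lists held 12 fragments per 1000000 at ES, 25.5 at HB, 35.5 at HE1, 34.9 at HE2 and 36.5 at HP. At -57.9 kb they held 2 fragments at ES (0.353 per 1000000, 0.0428 to 1.28), 20 at HB (3.21, 1.96 to 4.96), 176 at HE1 (19.9, 17.1 to 23.1), 190 at HE2 (29.8) and 145 at HP (21.2). At +3.7 kb the values were 0.53, 4.98, 6, 18.5 and 30.8 per 1000000 in the same order. The +24.4 kb site went from 0.353 at ES and 1.12 at HB to 1.81 at HE1, 6.12 at HE2 and 16.2 at HP. P1 held 2, 0, 5, 22 and 32 pDONR fragments. The -57.9, +3.7 and +24.4 kb sites, unlisted in sorted ES cells, were thus represented by 2 or 3 fragments in pDONR from ES chromatin.

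Fragments listed at a stage were mostly not found in the plasmid lists of that stage. Of the 271 fragments of the locus 214 (79.0%) were identical to a fragment of the plasmid lists used here. The methods keep fragments found in the plasmid libraries, and whether the others occur in plasmid data outside these lists was not checked. Of the 21 YFP-positive fragments at ES, 1 was in the ES plasmid lists, 11 in those of HE1 and 5 in those of HE2. Of the 69 at HB, 6 were in the HB lists, 22 in those of HE1 and 28 in those of HE2. At HE1 27 of 81 and at HE2 19 of 85 were in the lists of their own stage, and at HP 7 of 48, with 11 and 17 in those of HE1 and HE2. Whether the plasmids of all stages were mixed before transfection was not checked here. The stage in a sorted label is taken here as the stage of the sorted cells, and the stage in a plasmid label as that of the cloned chromatin.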

How the data were processed

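Stage, gate and replicate came from the sample labels, and the sites and gene lists were chosen with earlier results of these data known. Per the methods, the authors trimmed reads with Trim Galore, mapped them to mm10 with Bowtie2, kept pairs of high mapping quality and collapsed read pairs to distinct intervals. The methods then remove fragments of HM-1 control PCR, keep those in plasmid lists and limit them to open chromatin peaks. In the Runx1 locus 0 fragments matched the HM-1 lists and 214 of 271 matched the plasmid lists used here. The limit to peaks was not checked. The sorted lists were deposited as intervals without reads. Lists of plasmid and control fragments carry deposited read counts, as raw whole numbers. Sorted starts lay 1 bp above plasmid starts, which were moved by 1. Listed distinct fragments served as depth.

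Shares per 10000 listed fragments were compared by exact two-sided permutation tests. Benjamini-Hochberg adjustment was made within a family (4 steps, 5 stages or 4 neighbours). Genome-wide fits used limma 3.58.1 (lmFit, eBayes with trend) on log2(fragments per 10000 + 1), for features with a fragment in at least 10 of 50 or 4 of 10 sets, at an adjusted p of 0.05. Limits of a count of 0 used 3 counts. Named sites held or lay near an annotated Runx1 start, lay 22 to 25 kb downstream of P1, or were the 12 YFP-positive in most sets, with ties settled by YFP-positive fragments and then position. In simulated sets limma called 27 of 100 distal sites changed 4-fold between YFP-positive and Negative sets, and 49 of 100 gene loci changed 4-fold from ES to HB, and 97 and 87 of 100 changed 16-fold, with 0 unchanged features called. The simulated counts had Poisson error only, at the real depths, so these rates leave out other spread between replicates and need not hold for the real sets. Python 3.11.15, SciPy 1.17.1 and R 4.3.3 were used, with GENCODE annotation.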

Additional observations from a re-analysis of the deposited data

Results flagged for a closer look

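The highest HE1 Negative set stood apart from the other HE1 Negative sets. Replicate 5 had 17.1 fragments of the Runx1 locus per 10000, from 2 of 1169 listed fragments, against 0 to 4.43 in the other replicates. Its gap to the next set was above Dixon's critical value for 5 samples (0.71), a rule by which chance marks about 1 in 20 groups. The 95% Clopper-Pearson interval of this set ran from 2.07 to 61.7.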

How the results depend on the processing

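In YFP-positive cells the rise from ES to HB and the fall at HP after HE2 kept their direction under every alternative tried for them, but not their adjusted p. With High and Medium/High sets only they were 1.675 (adjusted p = 0.19) and -1.346 (0.492), and HB to HE1 (2.346) and HE1 to HE2 (-2.04) turned, by the exact permutation test. With distal fragments only the steps were 6.587 and -8.388 (adjusted p = 0.0952 each). HE2 to HP was -2.716 (0.175) with fragments identical to plasmid fragments and -1.383 (0.233) in the gene body. Limited to sets of at least 10000 fragments, an alternative chosen after seeing the data, the steps were 1.651 and -1.28 (adjusted p = 0.2 each). With the replicate number as a block they were 2.412 and -2.775, at the smallest p that design allows (0.0625, adjusted p = 0.125). Same-numbered sets deviated together in all 5 pairs for YFP-positive against Negative sets of HB and HE2, where the block changed no call. In the other comparisons 3 or 4 of the 5 pairs did. For steps between stages pairing was not established. By label, YFP-positive and Negative sets of 1 stage and replicate are gates of that replicate. These were paired in the tests over all stages and not in the main tests by stage. Without 1 replicate the steps ranged from 1.663 to 2.663 and from -3.324 to -2.416 (adjusted p = 0.0571 to 0.114).

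The difference of YFP-positive from Negative sets had no stable sign. It turned at HE2 with High and Medium/High sets (-1.151), plasmid-identical fragments (-0.3375), the gene body (-1.346) and sets of at least 1000 fragments (-0.7311), at HP with distal fragments (0.4294), at HB with sets of at least 10000 fragments (-0.8187), at ES on the log2 scale (0.01309), and over all stages with distal fragments (1.544) and on the log2 scale (0.1635). Without 1 replicate it ranged from -0.4848 to 0.2723 at ES, 0.1904 to 1.845 at HB, -3.755 to -0.1377 at HE1, -0.8023 to 0.8857 at HE2, -0.8877 to 0.3002 at HP and -0.8157 to -0.0354 over all stages. The causes were not tested.

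Weighting sets by listed fragments changed limma's counts of called features most. Distal sites called rose from 0 to 535, with the -57.9 kb site among them, between YFP-positive and Negative sets, 530 between high and low gates, and 83, 91, 566 and 485 over the 4 steps. Promoter sites rose to 364 and 520. Without the filter, 1, 3, 8 and 4 distal sites were called. The weighted Runx1 difference was -0.1407 for YFP-positive against Negative sets, -0.1809 for high against low gates and 0.8662 from ES to HB. In the unweighted fit without 1 replicate, the Runx1 difference ranged from -0.01356 to 0.2681 for YFP-positive against Negative sets and from -0.2874 to 0.2309 for high against low gates, and 0 to 2 distal sites were called from HE1 to HE2. Shallow sets limit these data: replicates 3 to 5 held few fragments of the locus, so 0 there does not show absence.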
